A study of Mus musculus with 8 samples.

Results

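The motile cilium dynein and axoneme genes are a set of genes chosen by name. They are the protein-coding genes whose mouse symbol starts with Dnah, Dnai, Dnaaf, Cfap, Tekt or Rsph followed by a digit, together with Foxj1. The rule found 93 genes among the 55416 gene identifiers in the deposited count files: 48 Cfap, 15 Dnah, 11 Dnaaf, 8 Rsph, 5 Dnai and 5 Tekt genes and Foxj1. Of these, 88 passed the filter on low counts and were tested among 18560 genes.

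The study took lung tissue from female C57BL/6 mice (C57BL/6J in the methods) aged 6 to 8 weeks for RNA sequencing. Control mice 1, 2 and 4 received vehicle (DMSO) and saline. LPS mice 1, 6 and 7 received lipopolysaccharide in saline at 35 mg/kg into the peritoneum, and the methods describe no DMSO for them. LPS+YW3-56 mice 2 and 5 received the PAD inhibitor YW3-56 at 10 mg/kg in DMSO before the same LPS dose. Lungs were collected 24 h later. While the methods describe 3 sequenced mice per group, the labels and a figure caption of the study give 2 for LPS+YW3-56.

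Motile cilia cover the multiciliated cells of the airway epithelium and beat to carry mucus and trapped particles out of the lung. Each holds an axoneme, a ring of microtubule doublets around a central pair, on which outer and inner dynein arms walk to bend the shaft, while radial spokes and the central apparatus keep the beat in order. Dynein arms are put together in the cytoplasm by assembly factors before they enter the cilium, and Foxj1 switches on many of the genes for these parts.

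Markers of ciliated cells were looked at first. All of Foxj1, Tppp3, Sntn, Ccdc39, Hydin and Spag17 had reads in every mouse, but they did not move as a block in LPS lungs. Levels here are read counts scaled to a common library size, that is CPM with TMM factors (TMM-CPM). Tppp3, a tubulin-binding protein of ciliated cells, stood at 296, 335 and 382 in control mice 1, 2 and 4, at 250, 202 and 223 in LPS mice 1, 6 and 7, and at 219 and 317 in LPS+YW3-56 mice 2 and 5. Its LPS values were all under the control values (log2 fold change −0.58 ± 0.16 SE, edgeR adjusted p 0.00911), and with LPS mouse 1 as the only LPS mouse the call was lost (−0.43, edgeR adjusted p 0.151). Spag17, a central apparatus protein, stood at 4.60, 6.66 and 4.46 in control mice, at 8.42, 9.36 and 21.7 in LPS mice and at 7.17 and 5.09 in LPS+YW3-56 mice. All of its LPS values lay above control (1.33 ± 0.36, edgeR adjusted p 0.00944), and the value was 0.77 without LPS mouse 7, still called, and 0.69 with LPS mouse 1 alone, where this call too was lost (edgeR adjusted p 0.0990). Sntn was at 7.73, 10.9 and 8.46 in control mice, at 6.11, 4.79 and 7.09 in LPS mice and at 10.3 and 8.17 in LPS+YW3-56 mice, so that its LPS mice were lowest. Its call (−0.59 ± 0.21, edgeR adjusted p 0.0329) was lost without control mouse 2 or 4 (−0.44 and −0.63), without LPS mouse 1 or 6 (−0.60 and −0.44) and with LPS mouse 1 alone (−0.56). Ccdc39, which sets the spacing of arms and spokes along the doublet, was at 15.0, 11.4 and 10.9 in control mice, at 13.6, 16.5 and 35.7 in LPS mice and at 14.8 and 12.9 in LPS+YW3-56 mice, with LPS mouse 7 far above the rest. Its call (0.82 ± 0.32, edgeR adjusted p 0.0455) was lost without LPS mouse 7 (0.29, edgeR adjusted p 0.186), with LPS mouse 1 alone (0.14), without control mouse 1, 2 or 4 (0.98, 0.76 and 0.74), without LPS+YW3-56 mouse 2 or 5 (0.82 in both) and on library size (0.56). Hydin, another central apparatus protein, was at 53.3 in LPS mouse 7 but at 17.0 and 16.1 in LPS mice 1 and 6, against 17.9, 12.6 and 13.7 in control mice. It had no call (0.97 ± 0.41, edgeR adjusted p 0.0605), and without LPS mouse 1 or without LPS mouse 6 it had one (1.25, edgeR adjusted p 0.0215, and 1.27, edgeR adjusted p 0.0205). With no filter on low counts it was called too (0.95, edgeR adjusted p 0.00303). The value was 0.18 without LPS mouse 7 (edgeR adjusted p 0.363) and 0.22 with LPS mouse 1 alone.

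LPS mice 6 and 7 stood apart from LPS mouse 1 and the other mice in markers of tissue other than lung. The summed level of 8 squamous epithelium genes was 6.12, 4.69 and 4.60 TMM-CPM in control mice 1, 2 and 4, 1.19, 777 and 2115 in LPS mice 1, 6 and 7, and 3.59 and 5.36 in LPS+YW3-56 mice 2 and 5. Krt13 was the most abundant, at 286 and 887 in LPS mice 6 and 7 and at no more than 0.878 in the other mice. Summed over 8 skeletal muscle genes, the level was 10.9, 20.9 and 15.8 in control mice, 21.4, 472 and 1225 in LPS mice, and 6.85 and 9.13 in LPS+YW3-56 mice. Its most abundant gene, Acta1, reached 210.0 and 600.0 in LPS mice 6 and 7 and had no read in control mouse 1. The other genes of both lists had reads in at least 1 mouse. The part of this tissue in the results below was not tested.

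LPS mouse 7 also had the highest level of most cilium genes. It was the highest of the LPS mice for 70 of the 88 tested members (79.5%), against 6340 of 18560 genes tested (34.2%). The median log2 ratio of LPS mouse 7 to the mean of LPS mice 1 and 6 was 0.54 over the members and −0.02 over all genes, with 0.5 added to each TMM-CPM level first. It was 1.16 over the 15 Dnah heavy chains, where it ran from 0.25 to 1.55, and 0.48 over the other 73 members. Summed over the 93 members, the level was 1259, 1393 and 1334 TMM-CPM in control mice 1, 2 and 4, 1648, 1607 and 2553 in LPS mice 1, 6 and 7, and 1455 and 1329 in LPS+YW3-56 mice 2 and 5. All LPS sums lay above all others on this scale. On library size alone they did not, at 1350.0, 1500.0 and 1414 in control mice against 1334, 1435 and 2372 in LPS mice.

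Airway lists moved as well. Summed over 8 club cell genes, the level was 35140, 44550 and 41880 TMM-CPM in control mice, 76840, 65690 and 65180 in LPS mice and 30190 and 32500 in LPS+YW3-56 mice, with Scgb1a1 the most abundant (65300 of the sum in LPS mouse 1). Of these 8, Scgb1a1, Hp and Scgb3a2 were called higher and Aldh1a1, Cckar and Cyp2f2 lower in LPS than control lungs. The sum of 8 proximal secretory and gland genes, led by Bpifa1, was 1615, 1976 and 1424 in control mice, 4306, 5651 and 6459 in LPS mice, and 1245 and 620 in LPS+YW3-56 mice. Both sums were higher in every LPS mouse than in any other mouse. The sum of 6 airway basal cell genes, led by Aqp3, was 13.5, 23.1 and 16.5 in control mice, 12.0, 82.5 and 123 in LPS mice, and 14.5 and 22.7 in LPS+YW3-56 mice, so that LPS mice 6 and 7 were high and LPS mouse 1 was not. In LPS mouse 1, Aqp3 itself was above the control mice (11 against 3.28, 4.36 and 2.12), and Dapl1, Krt5, Krt14, Krt15 and Trp63 were each under all of them. The sum of 8 tracheal cartilage genes, led by Chad, was 23.3, 31.5 and 26.0 in control mice, 21, 11.7 and 15.4 in LPS mice, and 15.8 and 14.4 in LPS+YW3-56 mice, and Acan had no read in any mouse. Chad was called lower and Col2a1 higher in LPS than control lungs. The share of airway in each piece of lung was not measured, and its part in the results was not tested.

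Lists for other lung cells were summed in the same way. The 8 alveolar type 2 genes, led by Sftpc, summed to 38840, 32700 and 41000 TMM-CPM in control mice, 29680, 21260 and 17380 in LPS mice, and 21390 and 31790 in LPS+YW3-56 mice. The 8 alveolar type 1 genes, led by Ager, summed to 4917, 4566 and 4717 in control mice, 4218, 3457 and 2394 in LPS mice, and 2508 and 3275 in LPS+YW3-56 mice. LPS mouse 7 was the lowest mouse for both lists. The 8 endothelial genes, led by Cdh5, had group means of 3959, 1903 and 3633 in control, LPS and LPS+YW3-56 lungs. The 8 fibroblast genes, led by Pdgfra, had means of 1269, 1088 and 1244, and the 8 neutrophil genes, led by S100a9, had means of 166, 2401 and 2077. Some genes went against the sum of their list, as Sftpd (alveolar type 2), Pdpn (alveolar type 1), Dcn and Lum (fibroblast) were called higher in LPS than control lungs, and Cdh5 had no call. Many axoneme genes are also used in the sperm tail. The 8 spermatid genes, led by Tssk6, summed to no more than 2.46 in any mouse. Of these, 1 passed the filter on low counts, and Tnp1 and Odf1 had no read. The part of such cells in the results was not tested.

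Calls are those of edgeR's quasi-likelihood test with a Benjamini-Hochberg adjusted p under 0.05 over all 18560 genes. Between LPS and control lungs, 40 of the 88 tested members were called higher (45.5%) and 18 lower (20.5%), where 32.6% of all genes tested were called higher and 33.9% lower. The median log2 fold change was 0.43 over the members and −0.01 over all genes. Without LPS mouse 7 the counts were 34 higher (38.6%) and 21 lower (23.9%) with a median of 0.15, where 31.5% of all genes were called higher and 33.6% lower. With LPS mouse 1 as the only LPS mouse they were 26 higher (29.5%) and 20 lower (22.7%) with a median of 0.18, where all genes gave 27.1% and 28.4%. Scaling by library size alone, which put the median of all genes at −0.29, gave 20 higher (22.7%) and 22 lower (25%), where all genes gave 23.4% and 42.2%. The members' median less that of all genes was 0.44 on TMM, upper-quartile and library-size scaling. A change of scaling moves all genes about alike, so it leaves this value nearly fixed. In whole lung, fewer cells of a type and less RNA per cell cannot be told apart.

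Between LPS+YW3-56 and LPS lungs, 28 members were called lower (31.8%) and 16 higher (18.2%), where 27.4% of all genes tested were called lower and 31.7% higher. The median was −0.29 over the members and 0.06 over all genes. Leaving out LPS mouse 7 gave 20 lower (22.7%) and 24 higher (27.3%) with a median of −0.05, where all genes gave 27% and 31.2%. Leaving out LPS+YW3-56 mouse 5 gave 14 lower (15.9%) and 9 higher (10.2%) with a median of −0.24, where all genes gave 20.7% and 23.5%. With LPS mouse 1 as the only LPS mouse the counts were 16 lower (18.2%) and 20 higher (22.7%), against 23.2% and 25.9% of all genes. Library size alone put the median of all genes at 0.38 and the members' median at 0.03, with 16 lower (18.2%) and 25 higher (28.4%) against 17.4% and 42.5% of all genes. The members' median less that of all genes was −0.35 on each of the 3 scales. Both the change of sign and this constant value follow from a scaling that moves all genes about alike, and neither is a result about the set.

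Between LPS+YW3-56 and control lungs, edgeR called 0 of the 88 members at the adjusted threshold, where 7.02% of all genes tested were called lower and 9.13% higher. At an unadjusted p under 0.05 it gave 2 lower, Cfap144 and Rsph1, and 4 higher, Cfap119, Cfap20dc, Cfap69 and Dnah12 (2.27% and 4.55%), where it gave 14.7% of all genes lower and 15.7% higher. DESeq2 called 0 lower and 1 higher, which was Cfap69, where it gave 10.4% of all genes lower and 10.3% higher. The median was 0.09 over the members, from −0.54 to 0.96, and 0.00 over all genes. These 3 comparisons share mice with each other, the LPS mice in the first pair and the control or LPS+YW3-56 mice in the others, so the values of a gene in them are given side by side and not as separate evidence. Counted side by side, 27 members (30.7%, against 23.5% of all genes) were called higher in LPS than control lungs and lower in LPS+YW3-56 than LPS lungs, and 15 (17%, against 26.4%) were called lower and then higher. Another 13 were called higher and 3 lower in LPS against control alone, 28 had no call, and Cfap70 (lower) and Cfap20dc (higher) were called in LPS+YW3-56 against LPS alone. The shares of all genes in these other classes were not counted, so these counts are not read against a background.

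**Figure D1:**
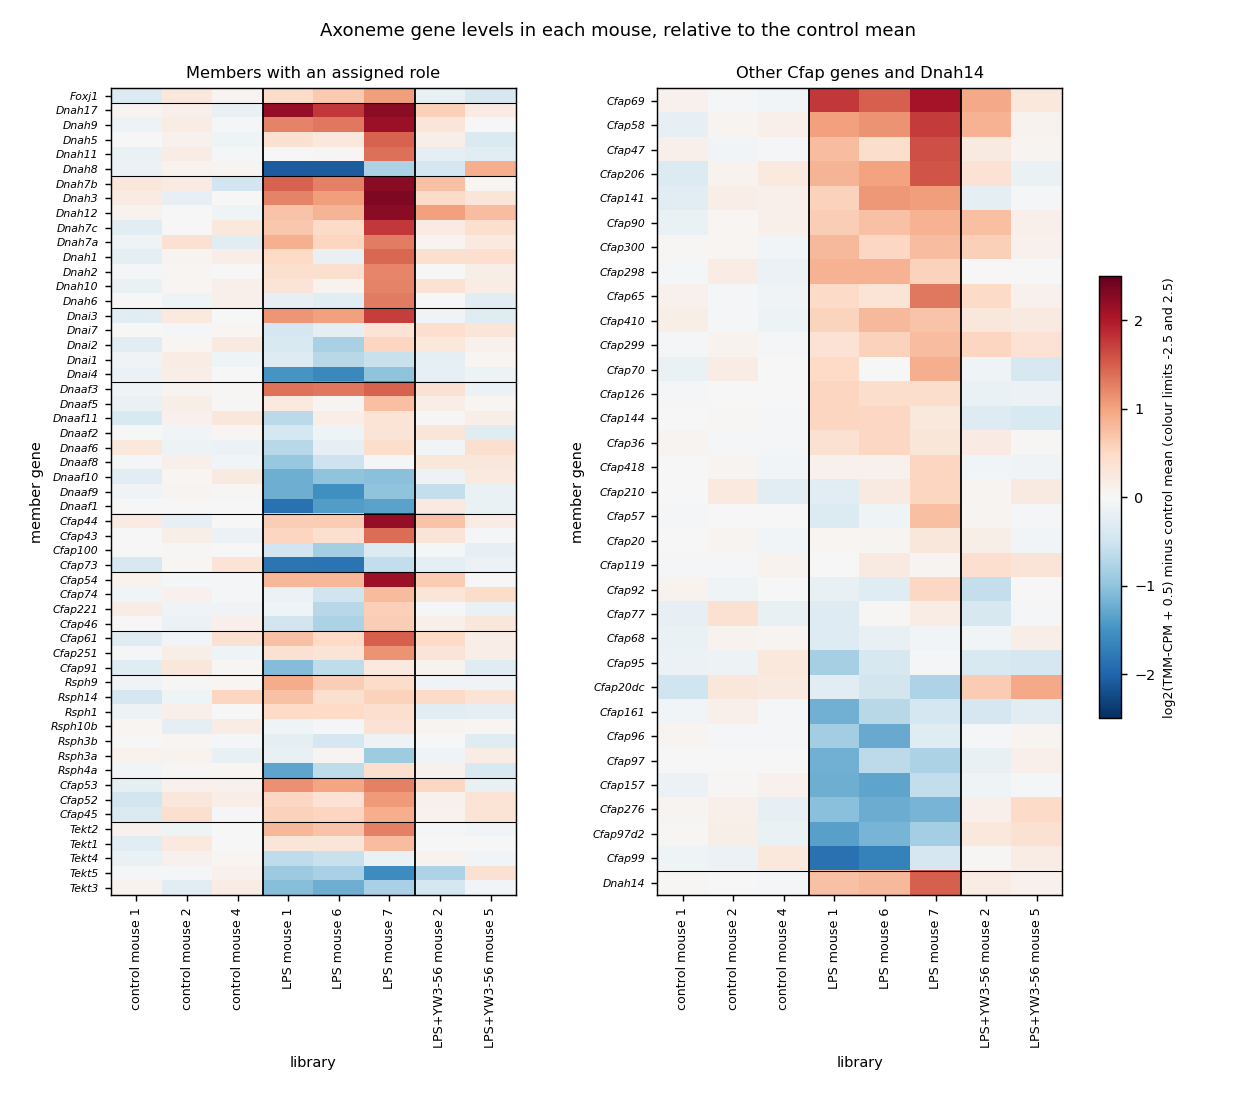
Level of the 88 tested members in each of the 8 mice, as log2 (TMM-CPM + 0.5) less the control mean, with genes in rows by role and mice in columns. Colours run from −2.5 to 2.5, and most of the Dnah rows are deepest in LPS mouse 7.

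Foxj1, the transcription factor that switches on the motile cilium programme, lies at chr11:116221530-116226225 in GRCm39. It stood at 98.0, 148 and 130.5 TMM-CPM in control mice 1, 2 and 4, at 170.4, 195 and 255 in LPS mice 1, 6 and 7, and at 110.4 and 93.6 in LPS+YW3-56 mice 2 and 5. Every LPS mouse was above every other mouse, and the control and LPS+YW3-56 values overlapped. The log2 fold change was 0.72 ± 0.18 in LPS against control (edgeR adjusted p 0.00644), −1.02 ± 0.21 in LPS+YW3-56 against LPS (edgeR adjusted p 0.00259) and −0.30 ± 0.21 in LPS+YW3-56 against control (edgeR adjusted p 0.370). The first call was lost on library size alone (0.45, edgeR adjusted p 0.0792) and with LPS mouse 1 as the only LPS mouse (0.45, edgeR adjusted p 0.112). Per kb of exon, Foxj1 had the highest mean control level of the members, at 40.1 TMM-CPM per kb, and the next were the spoke head gene Rsph1 at 19.4, Cfap144 at 17.5, Cfap126 at 13.7 and Cfap20 at 11.8.

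The Dnah genes encode the dynein heavy chains, the motors of the arms. Of 15 tested, 11 were called higher in LPS than control lungs (73.3%, against 32.6% of all genes) and 1 lower (6.67% against 33.9%), with a median of 1.01. Without LPS mouse 7 the count called higher was 9 (60%, against 31.5% of all genes) and the median 0.63, and with LPS mouse 1 alone it was 7 (46.7% against 27.1%). Between LPS+YW3-56 and LPS lungs 8 were called lower (53.3% against 27.4%) and 1 higher (6.67% against 31.7%) with a median of −0.85. The count called lower was 5 (33.3%) without control mouse 1, LPS mouse 7 or LPS+YW3-56 mouse 2, where all genes gave 26.5%, 27% and 23%. It was 2 without LPS+YW3-56 mouse 5 (13.3% against 20.7%) and 3 with LPS mouse 1 alone (20% against 23.2%), both under the share of all genes. On library size alone 6 were called higher in LPS than control lungs (40% against 23.4%), and the median was 0.73.

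Among the outer arm heavy chains, Dnah17, best known from the sperm tail, had the highest fold change of the members in LPS against control. It stood at 4.94, 5.16 and 4.05 TMM-CPM in control mice 1, 2 and 4, at 23.4, 17.3 and 24.2 in LPS mice 1, 6 and 7, and at 7.40 and 5.49 in LPS+YW3-56 mice 2 and 5. All LPS values lay above the rest, LPS mouse 1 was level with LPS mouse 7, and the LPS+YW3-56 values lay just above the control values. Its log2 fold change was 2.2 ± 0.20 in LPS against control (edgeR adjusted p 1.11e-05), −1.75 ± 0.22 in LPS+YW3-56 against LPS (edgeR adjusted p 0.000157) and 0.45 ± 0.22 in LPS+YW3-56 against control (edgeR adjusted p 0.199). The last value ran from 0.19 to 0.62 over all alternatives.

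Dnah9 is an outer arm heavy chain of airway cilia. Its level was 16.6, 20.7 and 17.5 TMM-CPM in control mice, 43.6, 46.0 and 82.1 in LPS mice and 22.6 and 18.2 in LPS+YW3-56 mice. LPS mouse 7 was the highest, and the other LPS mice were also above every control and LPS+YW3-56 mouse. On the log2 scale the difference was 1.65 ± 0.24 in LPS against control (edgeR adjusted p 0.000202) and −1.49 ± 0.27 in LPS+YW3-56 against LPS (edgeR adjusted p 0.00121), and without LPS mouse 7 it was 1.30 and −1.14.

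Dnah5, the other main outer arm heavy chain of airway cilia, depended on single mice. It stood at 21.5, 23.4 and 20 TMM-CPM in control mice, at 28.3, 25.9 and 61.3 in LPS mice and at 24.3 and 16.7 in LPS+YW3-56 mice. Only LPS mouse 7 was far from the rest. Its call in LPS against control (0.83 ± 0.30, edgeR adjusted p 0.0339) was lost without LPS mouse 7 (0.33, edgeR adjusted p 0.101) and without control mouse 1, 2 or 4 (0.83, 0.89 and 0.78, with edgeR adjusted p 0.0804, 0.0612 and 0.0985). The call in LPS+YW3-56 against LPS (−0.91 ± 0.35, edgeR adjusted p 0.0451) was lost without LPS mouse 7 (−0.41), without LPS+YW3-56 mouse 5 (−0.69) and without control mouse 1, 2 or 4 (−0.91, −0.91 and −0.94). Both calls were also lost with LPS mouse 1 alone (0.39 and −0.47) and on library size (0.57 and −0.60).

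Dnah11, the third outer arm heavy chain of airway cilia, was at 10.2, 13.2 and 11.3 TMM-CPM in control mice, at 11.6, 11.7 and 30.6 in LPS mice and at 9.58 and 9.44 in LPS+YW3-56 mice. LPS mice 1 and 6 lay within the control range. It had no call in LPS against control (0.64 ± 0.34, edgeR adjusted p 0.126), and without LPS mouse 7 the value was 0.02. Without LPS mouse 1 it was called higher (0.88, edgeR adjusted p 0.0425), as it was without LPS mouse 6 (0.88). It had none in LPS+YW3-56 against LPS either (−0.92 ± 0.39, edgeR adjusted p 0.0688), but was called lower there without LPS mouse 1 or LPS mouse 6 (−1.16 in both, with edgeR adjusted p 0.0259 and 0.0309) and by DESeq2 (−0.97, adjusted p 0.0209). That value was −0.30 without LPS mouse 7 (edgeR adjusted p 0.167). With no filter on low counts Dnah11 was called in both comparisons (0.61 and −0.89, with edgeR adjusted p 0.0416 and 0.00992).

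Dnah8, known from the sperm tail, was the heavy chain called lower. Its levels were 1.86, 2.25 and 2.21 TMM-CPM in control mice, 0.119, 0.116 and 1.0 in LPS mice and 1.45 and 4.35 in LPS+YW3-56 mice. LPS mice 1 and 6 were near 0 and LPS mouse 7 was nearer to control. LPS against control gave −2.32 ± 0.72 on the log2 scale (edgeR adjusted p 0.0172), −4.09 without LPS mouse 7 and −1.87 without LPS mouse 6, where the call was lost (edgeR adjusted p 0.0538). Against LPS, the LPS+YW3-56 value was 2.78 ± 0.76 (edgeR adjusted p 0.0111), 4.55 without LPS mouse 7 and 1.76 without LPS+YW3-56 mouse 5, where the call was lost (edgeR adjusted p 0.127).

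Of the 9 inner arm heavy chains, 7 were called higher in LPS than control lungs (77.8%, against 32.6% of all genes), with a median of 1.01, and 4 were called lower in LPS+YW3-56 than LPS lungs (44.4% against 27.4%). Without LPS mouse 7 the count called higher was 6 (66.7% against 31.5%) and the median 0.63, and on library size alone the count was 3 (33.3% against 23.4%). The count called lower in LPS+YW3-56 lungs was 2 (22.2%) without control mouse 1 or LPS+YW3-56 mouse 2, where all genes gave 26.5% and 23%, and 1 with LPS mouse 1 alone (11.1% against 23.2%), all under the share of all genes. Those 4 calls were lost without LPS+YW3-56 mouse 5, where the median was −0.76 against −0.66 with it. Dnah3, a single-headed inner arm motor, stood at 28.8, 21.7 and 24.9 TMM-CPM in control mice, at 59.6, 52.0 and 128 in LPS mice and at 34.9 and 31.0 in LPS+YW3-56 mice. The groups did not overlap, and LPS mouse 7 was more than 2-fold above the other LPS mice. The log2 fold change was 1.67 ± 0.30 in LPS against control (edgeR adjusted p 0.000923) and −1.28 ± 0.34 in LPS+YW3-56 against LPS (edgeR adjusted p 0.00999). The second was −0.77 without LPS mouse 7, and its call was lost without LPS+YW3-56 mouse 5 (−1.22, edgeR adjusted p 0.0581).

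Dnah7b is a second single-headed inner arm motor, with close relatives in Dnah7a and Dnah7c that share sequence with it. It stood at 6.75, 6.43 and 3.77 TMM-CPM in control mice, at 16.2, 13.9 and 28.2 in LPS mice and at 9.39 and 5.66 in LPS+YW3-56 mice. All LPS values were above the rest. As log2 fold changes, LPS against control gave 1.78 ± 0.33 (edgeR adjusted p 0.00106) and LPS+YW3-56 against LPS gave −1.37 ± 0.37 (edgeR adjusted p 0.0109), with the second call lost without LPS+YW3-56 mouse 5 (−1.07, edgeR adjusted p 0.0795) and with LPS mouse 1 as the only LPS mouse (−1.11, edgeR adjusted p 0.0501).

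Dnah10, a chain of the double-headed inner arm dynein, was at 34.1, 39.8 and 42.3 TMM-CPM in control mice, at 48.2, 41.3 and 91.5 in LPS mice and at 49.5 and 44.1 in LPS+YW3-56 mice. LPS mouse 6 lay within the control range. Its call in LPS against control (0.64 ± 0.26, edgeR adjusted p 0.0498) was lost when any of 6 mice was left out in turn, with 0.22 without LPS mouse 7, 0.55, 0.66 and 0.71 without control mouse 1, 2 or 4, and 0.64 and 0.63 without LPS+YW3-56 mouse 2 or 5, as it was with LPS mouse 1 alone (0.32) and on library size (0.37). Dnah6, a single-headed motor, was at 37.3, 35.2 and 41.1 in control mice, at 32.7, 30.8 and 93.9 in LPS mice and at 37.3 and 31.4 in LPS+YW3-56 mice. It had no call (0.47 ± 0.37, edgeR adjusted p 0.278), and LPS mice 1 and 6 were both under the control mice. The value turned to −0.24 without LPS mouse 7 (edgeR adjusted p 0.0978) and to −0.20 with LPS mouse 1 alone, and it was 0.73 and 0.75 without LPS mouse 1 or 6, none of them called.

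Dnah14 has no settled place in the arms. It was at 1.17, 1.13 and 1.10 TMM-CPM in control mice, at 2.2, 2.37 and 4.07 in LPS mice and at 1.36 and 1.27 in LPS+YW3-56 mice. Every LPS mouse was above every other mouse. Dnah14 had a log2 fold change of 1.34 ± 0.32 in LPS against control (edgeR adjusted p 0.00457), with the call lost only with LPS mouse 1 alone (0.95, edgeR adjusted p 0.0692) among the mice left out. The LPS+YW3-56 against LPS value was −1.13 ± 0.36 (edgeR adjusted p 0.0227), and that call was lost without LPS mouse 7 (−0.80) and without LPS+YW3-56 mouse 2 or 5 (−1.20 and −1.10), with LPS mouse 1 alone (−0.74) and on library size (−0.82).

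**Figure D2:**
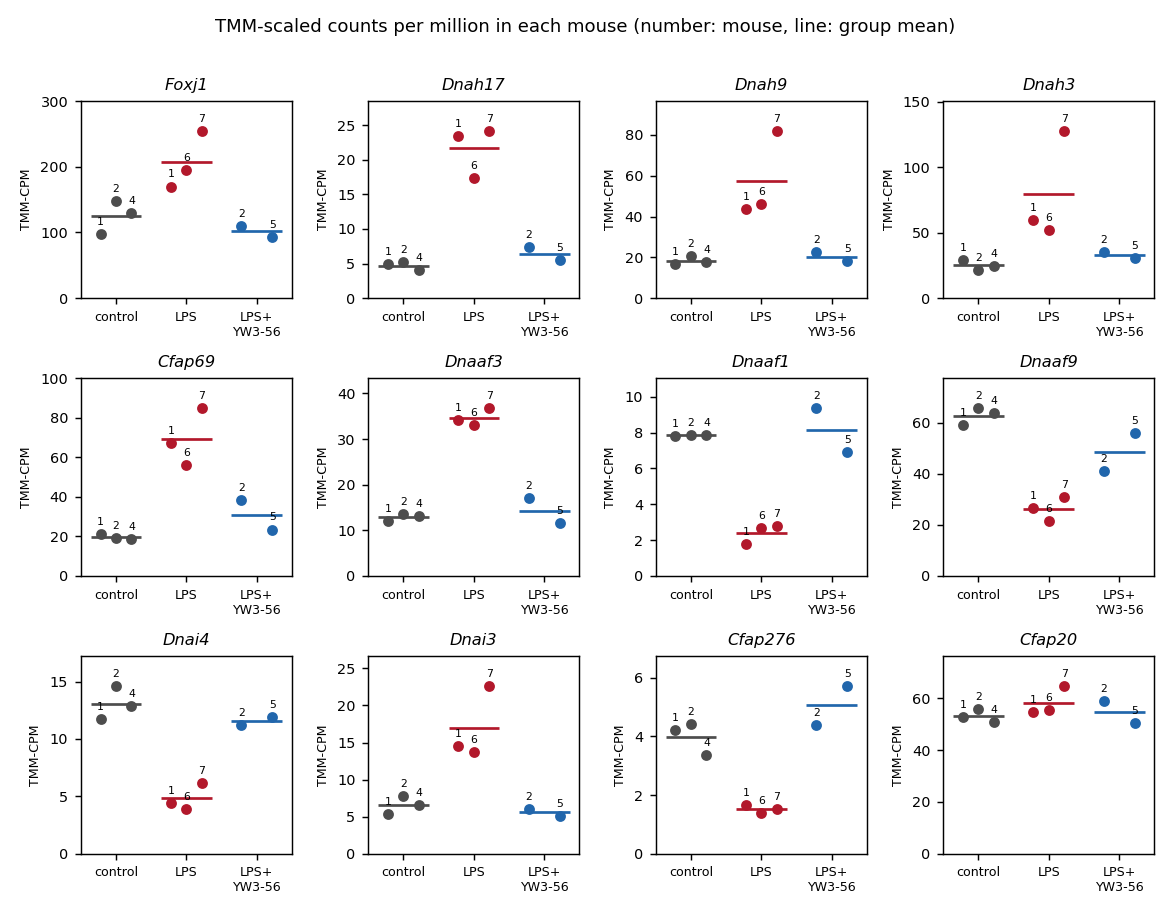
Level of 12 members in TMM-CPM in each mouse of the control, LPS and LPS+YW3-56 groups, with a point per mouse and a line at the group mean. Foxj1, Dnah17, Dnah9, Dnah3, Cfap69, Dnaaf3 and Dnai3 are highest in LPS mice, Dnaaf1, Dnaaf9, Dnai4 and Cfap276 are lowest in them, and Cfap20 overlaps between groups.

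The dynein intermediate chains, which hold the heavy chains in their arms, had 2 called lower (40%, against 33.9% of all genes) and 1 higher (20% against 32.6%) of 5 in LPS against control, near the shares of all genes. The count called lower was 1 (20%) without control mouse 2, without LPS mouse 6 and with LPS mouse 1 alone, where all genes gave 30.9%, 32% and 28.4%. Dnai3, of the double-headed inner arm dynein, stood at 5.33, 7.79 and 6.58 TMM-CPM in control mice, at 14.5, 13.7 and 22.6 in LPS mice and at 6.04 and 5.14 in LPS+YW3-56 mice. Dnai4, which serves the same inner arm, stood at 11.7, 14.6 and 12.9 in control mice, at 4.39, 3.93 and 6.20 in LPS mice and at 11.2 and 11.9 in LPS+YW3-56 mice. All LPS mice were above the other mice for Dnai3 and under them for Dnai4, LPS mouse 7 included. For Dnai3 the log2 fold change was 1.37 ± 0.23 in LPS against control (edgeR adjusted p 0.000595) and −1.60 ± 0.27 in LPS+YW3-56 against LPS (edgeR adjusted p 0.000777). For Dnai4 it was −1.43 ± 0.20 (edgeR adjusted p 0.000159) and 1.25 ± 0.21 (edgeR adjusted p 0.000858).

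The outer arm intermediate chains moved less. Dnai1 was at 7.68, 9.39 and 7.59 TMM-CPM in control mice, at 6.47, 4.85 and 5.41 in LPS mice and at 6.90 and 8.52 in LPS+YW3-56 mice. Its LPS values were all under control (−0.56 ± 0.19, edgeR adjusted p 0.0256), but the call was lost without control mouse 2 (−0.46), LPS mouse 6 (−0.46) or LPS mouse 7 (−0.53), and with LPS mouse 1 alone (−0.34). Dnai2 was at 11.3, 14.5 and 16.4 in control mice, at 10.6, 7.74 and 20.3 in LPS mice and at 16.7 and 15.1 in LPS+YW3-56 mice, with LPS mice 1 and 6 under control and LPS mouse 7 above it. It had no call (−0.13 ± 0.31, edgeR adjusted p 0.735) and was called lower without LPS mouse 7 (−0.61, edgeR adjusted p 0.0290), while without LPS mouse 6 its value was 0.14.

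Of the 9 tested dynein assembly factors 3 were called lower (33.3%, against 33.9% of all genes) and 1 higher (11.1% against 32.6%) in LPS than control lungs. The median of −0.18 became −1.19 without LPS mouse 7, where 4 were called lower (44.4% against 33.6%). Without LPS mouse 6 the count called higher was 2 of 9, where 30.7% of all genes were called higher. Dnaaf1, needed to assemble outer and inner arms, stood at 7.83, 7.84 and 7.86 TMM-CPM in control mice, at 1.78, 2.66 and 2.79 in LPS mice and at 9.35 and 6.94 in LPS+YW3-56 mice. All LPS mice were under the rest, and the LPS+YW3-56 mice lay on both sides of control. The log2 fold change was −1.70 ± 0.22 in LPS against control (edgeR adjusted p 0.000121), 1.75 ± 0.24 in LPS+YW3-56 against LPS (edgeR adjusted p 0.000242) and 0.05 ± 0.23 in LPS+YW3-56 against control (edgeR adjusted p 0.908). Of its exon bases, 22.6% lie in exons of other genes, and whether strand was used in counting is not stated in the sources used here.

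Dnaaf9, also called Shulin, packages outer arm dynein for its trip into the cilium. It was at 59.0, 65.6 and 63.8 TMM-CPM in control mice, at 26.7, 21.4 and 30.9 in LPS mice and at 41.2 and 56.0 in LPS+YW3-56 mice. The 3 groups did not overlap, and LPS+YW3-56 lay between the others. Dnaaf9 had a log2 fold change of −1.25 ± 0.15 in LPS against control (edgeR adjusted p 7.88e-05) and 0.88 ± 0.17 in LPS+YW3-56 against LPS (edgeR adjusted p 0.00166). Between LPS+YW3-56 and control lungs it was −0.37 ± 0.17 (edgeR adjusted p 0.178). It was −0.64 without LPS+YW3-56 mouse 5, and over all alternatives it ran from −0.64 to −0.19.

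Dnaaf10 was at 9.25, 11.6 and 13.2 TMM-CPM in control mice, at 4.51, 5.37 and 5.19 in LPS mice and at 10.3 and 13.4 in LPS+YW3-56 mice. It followed Dnaaf1, with all LPS mice lowest (−1.17 ± 0.19 against control, edgeR adjusted p 0.000484, and 1.23 ± 0.21 in LPS+YW3-56 against LPS, edgeR adjusted p 0.000805). Dnaaf3, another assembly factor, stood at 12.0, 13.6 and 13.2 in control mice, at 34.1, 33.0 and 36.7 in LPS mice and at 17.0 and 11.6 in LPS+YW3-56 mice. It was the assembly factor called higher (1.42 ± 0.15 against control, edgeR adjusted p 2.72e-05, and −1.27 ± 0.17 in LPS+YW3-56 against LPS, edgeR adjusted p 0.000197), and 33.3% of its exon bases lie in exons of other genes. Dnaaf5 was at 19.8, 24.7 and 22.6 in control mice, at 26.6, 23.5 and 38.1 in LPS mice and at 25.1 and 23.0 in LPS+YW3-56 mice. It had no call (0.40 ± 0.18, edgeR adjusted p 0.0725) and was called higher without LPS mouse 6 (0.54, edgeR adjusted p 0.0223) and by DESeq2 (0.43, adjusted p 0.0447). The value was 0.17 without LPS mouse 7 (edgeR adjusted p 0.259), 0.26 with LPS mouse 1 alone and 0.12 on library size (edgeR adjusted p 0.617).

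Cfap43 and Cfap44 form the tether that holds the double-headed inner arm dynein to the doublet, and both were called higher in LPS than control lungs. Cfap43 was at 37.6, 41.6 and 33.9 TMM-CPM in control mice, at 55.0, 49.8 and 99.3 in LPS mice and at 47.1 and 36.3 in LPS+YW3-56 mice. Cfap44 was at 25.2, 18.9 and 22 in control mice, at 33.9, 34.4 and 102 in LPS mice and at 36.3 and 25.1 in LPS+YW3-56 mice. LPS mouse 7 was far above the other LPS mice for both, and LPS+YW3-56 mouse 2 was above LPS mice 1 and 6 for Cfap44. The log2 fold change in LPS against control was 0.85 ± 0.24 for Cfap43 (edgeR adjusted p 0.0109) and 1.37 ± 0.40 for Cfap44 (edgeR adjusted p 0.0121). Without LPS mouse 7 these were 0.48 and 0.64, both still called, and on library size alone Cfap43 was not called (0.58, edgeR adjusted p 0.0773). In LPS+YW3-56 against LPS, Cfap43 (−0.71 ± 0.27, edgeR adjusted p 0.0472) lost its call without any 1 of 6 mice, with −0.71, −0.70 and −0.74 without control mouse 1, 2 or 4, −0.34 without LPS mouse 7, and −0.93 and −0.55 without LPS+YW3-56 mouse 2 or 5, and also with LPS mouse 1 alone (−0.41) and on library size (−0.40). Cfap44 had no call there (−0.89 ± 0.44, edgeR adjusted p 0.11) and was called lower without LPS mouse 1 or LPS mouse 6 (−1.16 in both), and also with no filter on low counts (−0.87, edgeR adjusted p 0.0102), while without LPS mouse 7 the value was −0.16 (edgeR adjusted p 0.483).

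Cfap73 and Cfap100 are docking proteins of other inner arms, and both were called lower in LPS than control lungs. Cfap100 was at 28.7, 29.7 and 28.8 TMM-CPM in control mice, at 20.8, 15.8 and 22.9 in LPS mice and at 28.0 and 25.3 in LPS+YW3-56 mice. All LPS values were lowest (−0.55 ± 0.14, edgeR adjusted p 0.00599). In LPS+YW3-56 against LPS it was called higher (0.43 ± 0.15, edgeR adjusted p 0.0365), a call lost without control mouse 1, 2 or 4 (0.43, 0.43 and 0.40), without LPS mouse 6 (0.28) without LPS+YW3-56 mouse 2 or 5 (0.33 and 0.48) and with LPS mouse 1 alone (0.35). Of its exon bases, 20.3% lie in exons of other genes. Cfap73 was at 1.66, 2.44 and 3.08 in control mice, at 0.297, 0.289 and 1.34 in LPS mice and at 1.91 and 2.06 in LPS+YW3-56 mice. Its LPS values were lowest (−1.88 ± 0.55, edgeR adjusted p 0.0130), with the call lost without control mouse 4 (−1.66, edgeR adjusted p 0.0503). It was −3.00 without LPS mouse 7 (edgeR adjusted p 0.000411) and −2.98 with LPS mouse 1 alone, and 63.2% of its exon bases lie in exons of other genes.

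Of the 4 central apparatus genes of the Cfap family, Cfap46 and Cfap74 split between LPS mice on either side of control. Cfap46 was at 20.8, 18.5 and 22.5 TMM-CPM in control mice, at 14.8, 11.7 and 31.9 in LPS mice and at 22.5 and 25.1 in LPS+YW3-56 mice. Cfap74, of the same projection, was at 14.4, 16.2 and 14.7 in control mice, at 13.6, 10.6 and 26.3 in LPS mice and at 18.6 and 21 in LPS+YW3-56 mice. For both, LPS mice 1 and 6 were under every control mouse and LPS mouse 7 was above every one. Neither had a call in LPS against control (−0.08 ± 0.31, edgeR adjusted p 0.830, and 0.16 ± 0.28, edgeR adjusted p 0.640). Without LPS mouse 7, Cfap46 was called lower against control (−0.63, edgeR adjusted p 0.00546) and Cfap74 turned to −0.31 (edgeR adjusted p 0.102), and in LPS+YW3-56 against LPS both were called higher (0.83, edgeR adjusted p 0.00232, and 0.70, edgeR adjusted p 0.00629). Without LPS mouse 1 or 6, Cfap46 turned to 0.09 and 0.19 against control, and with LPS mouse 1 alone it was called lower (−0.47). Cfap221, also of that projection, ran from 1.5 to 4.41 in LPS mice, around its control values of 3.18, 2.53 and 2.53, and had no call (0.03 ± 0.36, edgeR adjusted p 0.946), with −0.45 without LPS mouse 7 and −0.03 without control mouse 2 or 4. Cfap54, the other one, is named after its values were seen. It was at 6.70, 6.10 and 6.02 in control mice, at 11.5, 11.6 and 29.1 in LPS mice and at 9.94 and 6.19 in LPS+YW3-56 mice, so that all LPS mice lay above the rest. It was called higher against control (1.47 ± 0.36, edgeR adjusted p 0.00531, and 0.89 without LPS mouse 7). The call in LPS+YW3-56 against LPS (−1.11 ± 0.41, edgeR adjusted p 0.0394) was lost without control mouse 1, 2 or 4 (−1.11, −1.11 and −1.14), without LPS mouse 7 (−0.53), without LPS+YW3-56 mouse 5 (−0.83), with LPS mouse 1 alone (−0.51) and on library size (−0.81).

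Cfap61, Cfap91 and Cfap251 belong to a calmodulin-linked complex at the base of the spokes. Cfap251 was at 25.1, 28.4 and 23.7 TMM-CPM in control mice, at 33.6, 32.7 and 56.5 in LPS mice and at 32.2 and 29.0 in LPS+YW3-56 mice. It was called higher in LPS than control lungs (0.67 ± 0.20, edgeR adjusted p 0.0141), a call lost without control mouse 4 (0.62, edgeR adjusted p 0.0551), kept without LPS mouse 7 (0.38), and lost with LPS mouse 1 alone (0.39) and on library size (0.40). Cfap61 was at 3.28, 3.94 and 5.56 in control mice, at 7.24, 6.12 and 12.6 in LPS mice and at 6.08 and 4.74 in LPS+YW3-56 mice. Its LPS values were all above control (1.02 ± 0.31, edgeR adjusted p 0.0153), and the call was lost without control mouse 1 or 2 (0.86 and 0.96), without LPS mouse 7 (0.66), with LPS mouse 1 alone (0.77) and on library size (0.75). Cfap91 was at 6.85, 10.4 and 8.64 in control mice, at 3.74, 5.31 and 10.2 in LPS mice and at 9.03 and 6.85 in LPS+YW3-56 mice, with no call (−0.43 ± 0.34, edgeR adjusted p 0.284) until LPS mouse 7 was left out (−0.92, edgeR adjusted p 0.0140), or LPS mice 6 and 7 (−1.20). Without LPS mouse 1 it was −0.15, and without control mouse 2 it was −0.28.

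Among the radial spoke genes, 2 of 7 tested were called higher in LPS than control lungs (28.6%, against 32.6% of all genes), and the median of 0.07 was −0.21 on library size, −0.02 on upper-quartile scaling and −0.04 without LPS mouse 7. Rsph1, a spoke head protein, stood at 27.1, 32.6 and 29.9 TMM-CPM in control mice, at 42.5, 42.2 and 40.1 in LPS mice and at 24.4 and 25.5 in LPS+YW3-56 mice. Its 3 LPS values were close together and above the rest, and LPS mouse 7 was the lowest of them. The log2 fold change was 0.48 ± 0.10 in LPS against control (edgeR adjusted p 0.00204) and −0.74 ± 0.11 in LPS+YW3-56 against LPS (edgeR adjusted p 0.000452), and the first was lost on library size alone (0.19, edgeR adjusted p 0.143). Rsph3a and Rsph3b, near copies of a spoke stalk gene, ran from 7.81 to 15.7 and from 12.6 to 15.6 in LPS mice against 13.2 to 16.0 and 16.7 to 17.6 in control mice. Neither was called (−0.29 ± 0.23, edgeR adjusted p 0.289, and −0.27 ± 0.14, edgeR adjusted p 0.111), while both were called lower on library size alone (−0.59 and −0.55), and Rsph3b also on upper-quartile scaling (−0.36).

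Cfap45, Cfap52 and Cfap53 lie inside the doublet microtubules, and all 3 were called higher in LPS than control lungs, against 32.6% of all genes. Without control mouse 1, without control mouse 4 or with LPS mouse 1 alone 1 of them was (33.3%), where all genes gave 29.8%, 28.9% and 27.1%. Cfap53 was at 6.56, 8.31 and 8.37 TMM-CPM in control mice, at 17.6, 15.7 and 19.1 in LPS mice and at 11.3 and 6.67 in LPS+YW3-56 mice. Its LPS mice stood together above the rest (1.17 ± 0.21, edgeR adjusted p 0.000843), and it was called lower in LPS+YW3-56 than LPS lungs (−0.95 ± 0.24, edgeR adjusted p 0.00683) except on library size (−0.63, edgeR adjusted p 0.0521). Cfap45 was at 11.1, 19.2 and 14.1 in control mice, at 21.9, 21.1 and 27.7 in LPS mice and at 15.3 and 18.4 in LPS+YW3-56 mice. Its call (0.67 ± 0.20, edgeR adjusted p 0.0156) was lost without control mouse 1 or 4 (0.50 and 0.63), with LPS mouse 1 alone (0.57) and on library size (0.39). Cfap52 was at 4.75, 8.21 and 7.59 in control mice and at 9.73, 8.78 and 14.5 in LPS mice, and its call (0.68 ± 0.26, edgeR adjusted p 0.0395) was lost without control mouse 1 or 4 (0.48 and 0.76), without LPS mouse 7 (0.44), with LPS mouse 1 alone (0.51) and on library size (0.41). Of the Cfap52 exon bases, 36.3% lie in exons of other genes.

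The tektins, filament proteins of the doublets, divided into 3 called lower (60%, against 33.9% of all genes) and 2 higher (40% against 32.6%) in LPS than control lungs. The count called lower was 1 without control mouse 4 (20% against 30.8%). The count called higher was 1 (20%) without control mouse 1, control mouse 4 or LPS mouse 7 and with LPS mouse 1 alone, where all genes gave 29.8%, 28.9%, 31.5% and 27.1%. Tekt2 was at 8.42, 7.18 and 7.91 TMM-CPM in control mice, at 14.3, 13.2 and 19.5 in LPS mice and at 7.49 and 7.42 in LPS+YW3-56 mice. All LPS mice were above the rest (1.0 ± 0.18 against control, edgeR adjusted p 0.000783, and −1.07 ± 0.20 in LPS+YW3-56 against LPS, edgeR adjusted p 0.00154), and 24.3% of its exon bases lie in exons of other genes. Tekt1 was at 14.1, 20.3 and 17.1 in control mice, at 21, 21 and 29.5 in LPS mice and at 17.2 and 16.9 in LPS+YW3-56 mice. Its call (0.47 ± 0.18, edgeR adjusted p 0.0367) was lost without control mouse 1 or 4 (0.35 and 0.47), without LPS mouse 7 (0.30), with LPS mouse 1 alone (0.30) and on library size (0.20). Tekt4 was at 11, 13.4 and 12.7 in control mice, at 7.77, 8.26 and 11 in LPS mice and at 13.1 and 11.8 in LPS+YW3-56 mice. LPS mouse 7 was level with control mouse 1, and the call (−0.45 ± 0.17, edgeR adjusted p 0.0404) was lost without control mouse 2 or 4 (−0.40 and −0.43) without LPS mouse 1 or 6 (−0.35 and −0.39), and by DESeq2 (−0.42). Tekt3 and Tekt5, the other tektins called lower, are named after their values were seen. Tekt3 had 15, 10 and 18 raw counts in control mice, 1, 0 and 3 in LPS mice and 8 and 14 in LPS+YW3-56 mice, and Tekt5 stood at 2.89, 2.86 and 3.26 TMM-CPM in control mice, 1.36, 1.5 and 0.670 in LPS mice and 1.54 and 4.04 in LPS+YW3-56 mice. The Tekt5 call (−1.35 ± 0.42, edgeR adjusted p 0.0171) was lost without control mouse 4 (−1.28, edgeR adjusted p 0.0501), without LPS mouse 7 (−1.05, edgeR adjusted p 0.0521) and with LPS mouse 1 alone (−1.13).

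The other Cfap genes, with 32 of 34 tested, had 14 called higher (43.8%, against 32.6% of all genes) and 7 lower (21.9% against 33.9%) in LPS than control lungs. On library size alone 7 were called higher (21.9% against 23.4%), and their median of 0.24 was −0.03. Cfap69, known from sperm and olfactory cilia, had the second highest fold change of the members. It stood at 21, 19 and 18.7 TMM-CPM in control mice, at 67.5, 56.1 and 84.8 in LPS mice and at 38.2 and 23.5 in LPS+YW3-56 mice. The 3 groups did not overlap, and LPS+YW3-56 mouse 5 was near control. Cfap69 had a log2 fold change of 1.83 ± 0.20 in LPS against control (edgeR adjusted p 3.45e-05), −1.17 ± 0.22 in LPS+YW3-56 against LPS (edgeR adjusted p 0.00157) and 0.66 ± 0.22 in LPS+YW3-56 against control (edgeR adjusted p 0.0690). The last was called higher without LPS mouse 7 (0.66, edgeR adjusted p 0.0444) and by DESeq2 (0.64, adjusted p 0.0357). It was also called higher with no filter on low counts (0.65, edgeR adjusted p 0.00742) and with only the 2 groups fitted (0.67, edgeR adjusted p 0.0474). Without LPS+YW3-56 mouse 5, where mouse 2 stands alone for its group, it was 0.94. Over all alternatives it ran from 0.24 to 0.94.

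Cfap276, a protein of the doublet lumen, was at 4.21, 4.41 and 3.36 TMM-CPM in control mice, at 1.66, 1.39 and 1.51 in LPS mice and at 4.40 and 5.71 in LPS+YW3-56 mice. All LPS mice were lowest and close together (−1.39 ± 0.24 against control, edgeR adjusted p 0.000634, and 1.73 ± 0.26 in LPS+YW3-56 against LPS, edgeR adjusted p 0.000364). Cfap97d2 was at 2.35, 2.58 and 1.98 in control mice, at 0.593, 0.751 and 1.06 in LPS mice and at 2.86 and 3.12 in LPS+YW3-56 mice, in the same order (−1.51 ± 0.31, edgeR adjusted p 0.00185, and 1.89 ± 0.33, edgeR adjusted p 0.000968). Cfap99 was at 2.2, 2.11 and 2.99 in control mice, at 0.297, 0.404 and 1.67 in LPS mice and at 2.45 and 2.81 in LPS+YW3-56 mice. Its call against control (−1.60 ± 0.54, edgeR adjusted p 0.0256) was lost without control mouse 4 (−1.43) and without LPS mouse 1 or 6 (−1.21 and −1.28), while the value was −2.76 without LPS mouse 7 (edgeR adjusted p 0.000303) and −3.01 with LPS mouse 1 alone. Cfap20dc was at 0.783, 1.69 and 1.61 in control mice, at 1.01, 0.809 and 0.558 in LPS mice and at 2.31 and 2.99 in LPS+YW3-56 mice. The LPS+YW3-56 mice were highest, and it was called higher against LPS (1.74 ± 0.42, edgeR adjusted p 0.00622), except with LPS mouse 1 alone (1.38, edgeR adjusted p 0.0856), and lower in LPS than control lungs without control mouse 1 (−1.06, edgeR adjusted p 0.0378) and on library size (−1.08, edgeR adjusted p 0.0337) but not otherwise (−0.78, edgeR adjusted p 0.111).

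The most abundant other Cfap genes per kb in control lungs had small fold changes. Cfap144, of the doublet lumen, was at 17.2, 17.5 and 16.8 TMM-CPM in control mice, at 25.3, 24.7 and 20.6 in LPS mice and at 13.6 and 13.0 in LPS+YW3-56 mice. Cfap126, which helps to place basal bodies, was at 23.9, 24.5 and 24.4 in control mice, at 35.4, 33.3 and 33.0 in LPS mice and at 21.6 and 21.9 in LPS+YW3-56 mice. For both the LPS mice were highest and the LPS+YW3-56 mice were under every control mouse. Cfap144 had 0.45 ± 0.12 in LPS against control (edgeR adjusted p 0.00711) and −0.82 ± 0.14 in LPS+YW3-56 against LPS (edgeR adjusted p 0.000678), and it was called lower in LPS+YW3-56 than control lungs without LPS mouse 7 (−0.37, edgeR adjusted p 0.0457) but not with it (−0.37, edgeR adjusted p 0.0923). Cfap126 had 0.48 ± 0.09 (edgeR adjusted p 0.00111) and −0.64 ± 0.10 (edgeR adjusted p 0.000581), and on library size alone the LPS against control calls of both were lost (0.16 and 0.19). Cfap20, at the inner junction of the doublet, was at 52.8, 55.9 and 50.7 in control mice, at 54.8, 55.6 and 64.7 in LPS mice and at 59.1 and 50.3 in LPS+YW3-56 mice, and its groups overlapped (0.13 ± 0.10, edgeR adjusted p 0.274).

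Of the 93 members, 5 had too few counts to be tested. Cfap107 had 2 counts, in LPS mouse 1. Dnaaf4 had 3, in control mouse 2, and Rsph6a had 2, in LPS+YW3-56 mouse 5. Cfap97d1 had from 0 to 5 counts per mouse, and Dnaaf6rt had none in any mouse.

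Differences from control were set against gene length. Spearman's rho between exon length and the log2 difference from the control mean (of TMM-CPM with 0.5 added), across the 88 tested members within 1 mouse, was 0.17, 0.07 and 0.33 in LPS mice 1, 6 and 7, and 0.34 and 0.26 in LPS+YW3-56 mice 2 and 5. It was thus as high in LPS+YW3-56 mouse 2 as in LPS mouse 7. Over 18488 genes with a length it was −0.09, −0.13 and −0.06 in the LPS mice and −0.13 and −0.12 in the LPS+YW3-56 mice. Genes are not independent replicates, the Dnah genes are among the longest members, and the part of length in the results was not tested.

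**Figure D3:**
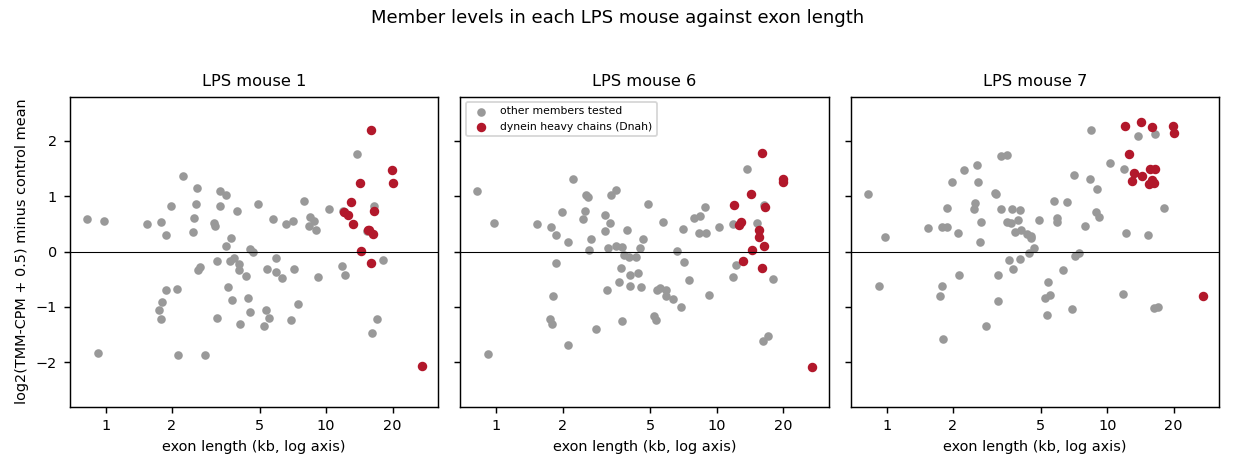
Exon length in kb against the log2 difference from the control mean for the 88 tested members in LPS mice 1, 6 and 7, with a point per gene and the Dnah genes in red. In LPS mouse 7, where rho across genes is 0.33, the long Dnah genes lie higher than in LPS mice 1 and 6.

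Exons of other genes cover more than 20% of the exon bases of some members. Among the 73 tested members with at most 20% covered, 32 were called higher (43.8%, against 32.6% of all genes) and 14 lower (19.2% against 33.9%) in LPS than control lungs, and 12 higher (16.4% against 31.7%) and 22 lower (30.1% against 27.4%) in LPS+YW3-56 than LPS lungs. Among the other 15, 8 were called higher (53.3%) and 4 lower (26.7%), and then 4 higher (26.7%) and 6 lower (40%).

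Other genes of the pathway were taken from lists of known cilium genes. Of 44 other axoneme genes tested, 10 were called higher (22.7%) and 13 lower (29.5%) in LPS than control lungs, and 8 higher (18.2%) and 12 lower (27.3%) in LPS+YW3-56 than LPS lungs. The shares of all genes were 32.6% and 33.9%, then 31.7% and 27.4%, so that neither direction stood above its share of all genes. Beside Tppp3, their most abundant genes per kb were Dynlrb2 and Lrrc23. Lrrc23, a radial spoke protein, was at 29.4, 38.5 and 41.2 TMM-CPM in control mice, at 17.1, 11.5 and 19 in LPS mice and at 26.2 and 24.8 in LPS+YW3-56 mice. Its LPS mice were lowest (−1.20 ± 0.19 against control, edgeR adjusted p 0.000433). Dynlrb2, a dynein light chain, was at 35, 38.8 and 38.5 in control mice, at 45.1, 45.6 and 33.3 in LPS mice and at 27.3 and 29.7 in LPS+YW3-56 mice, and LPS mouse 7 was its lowest LPS mouse. It had no call in LPS against control (0.14 ± 0.13, edgeR adjusted p 0.356) and one without LPS mouse 7 (0.28, edgeR adjusted p 0.0292).

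Of 15 regulators of multiciliated cells, 5 were called higher (33.3%) and 3 lower (20%) in LPS than control lungs, and 3 higher (20%) and 2 lower (13.3%) in LPS+YW3-56 than LPS lungs. Of all genes, 32.6% and 33.9% were called so in the first comparison and 31.7% and 27.4% in the second, so the shares were near or under those of all genes. Those called higher in LPS lungs were Ccno, Cdc20b, E2f4, Plk4 and Trp73, and those called lower were Ccdc78, Gmnc and Mcidas. Their most abundant genes per kb were E2f4, Ccdc78 and Tfdp1. E2f4, a partner of Gmnc and Mcidas, had 0.28 ± 0.09 in LPS against control (edgeR adjusted p 0.0253), a call lost without control mouse 1 or 2 (0.24 and 0.27), without LPS mouse 1 or 6 (0.23 and 0.27) and on library size (−0.01). Tfdp1 had no call there (−0.18 ± 0.16, edgeR adjusted p 0.331) except on library size (−0.46, called lower). It was called higher in LPS+YW3-56 against LPS (0.80 ± 0.17, edgeR adjusted p 0.00331) except without LPS+YW3-56 mouse 2 (0.48). Tfdp1 was also called higher in LPS+YW3-56 against control (0.62, edgeR adjusted p 0.0393). That call was lost without control mouse 1, 2 or 4 (0.52, 0.67 and 0.65) and without LPS+YW3-56 mouse 2 (0.29). Ccdc78, a protein of the structures that multiply centrioles, was at 20.3, 24.7 and 22.5 TMM-CPM in control mice, at 9.97, 9.53 and 16.1 in LPS mice and at 31.3 and 31.4 in LPS+YW3-56 mice. The 3 groups did not overlap (−0.92 ± 0.19 in LPS against control, edgeR adjusted p 0.00220, and 1.40 ± 0.21 in LPS+YW3-56 against LPS, edgeR adjusted p 0.000398). In LPS+YW3-56 against control Ccdc78 had no call (0.48, edgeR adjusted p 0.153). It was called higher there without LPS mouse 7 (0.48, edgeR adjusted p 0.0222) and with only the 2 groups fitted (0.49, edgeR adjusted p 0.0216). Ccno, which acts when centrioles multiply in these cells, is named after its values were seen. It was at 2.35, 3.90 and 2.44 in control mice, at 29.1, 26.2 and 25.6 in LPS mice and at 2.63 and 1.71 in LPS+YW3-56 mice. The LPS mice stood far above the rest and close together (3.22 ± 0.24 against control, edgeR adjusted p 3.55e-06, and −3.63 ± 0.29 in LPS+YW3-56 against LPS, edgeR adjusted p 1.18e-05). Gmnc and Mcidas, which start the multiciliated programme, are also named after their values were seen, and both went down. Gmnc had 14, 38 and 21 raw counts in control mice, 2, 0 and 0 in LPS mice and 23 and 26 in LPS+YW3-56 mice. Mcidas had 11, 21 and 16 raw counts in control mice, 5, 5 and 4 in LPS mice and 7 and 9 in LPS+YW3-56 mice. The Mcidas call (−1.46 ± 0.47, edgeR adjusted p 0.0205) was lost without control mouse 2 (−1.23), without LPS mouse 7 (−1.34), with LPS mouse 1 alone (−1.32), with no filter on low counts (−1.49) and by DESeq2 (−1.45).

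Of 28 tested genes for intraflagellar transport, which primary cilia also use, 5 were called higher (17.9%) and 13 lower (46.4%) in LPS than control lungs, and 10 higher (35.7%) and 3 lower (10.7%) in LPS+YW3-56 than LPS lungs, where all genes gave 32.6%, 33.9%, 31.7% and 27.4% in that order. Their most abundant genes per kb were Ift20, Ift172 and Kif3b. Ift20, a carrier subunit, was at 72.2, 66.5 and 68.3 TMM-CPM in control mice, at 37.4, 36.8 and 34.3 in LPS mice and at 59.9 and 61.3 in LPS+YW3-56 mice. The 3 groups did not overlap (−0.93 ± 0.08 in LPS against control, edgeR adjusted p 1.03e-05, and 0.74 ± 0.09 in LPS+YW3-56 against LPS, edgeR adjusted p 0.000121). Ift172, another carrier subunit, was at 59.6, 59.1 and 62.4 in control mice, at 43.1, 40.8 and 55.2 in LPS mice and at 60.9 and 63.9 in LPS+YW3-56 mice. Its LPS mice were lowest (−0.38 ± 0.12, edgeR adjusted p 0.0160), with the call lost without control mouse 4 (−0.36) and without LPS mouse 1 or 6 (−0.32 and −0.29), and the value was −0.66 on library size. Kif3b, a motor subunit, went the other way, at 41.9, 45.9 and 46.3 in control mice, 58.0, 63.9 and 64.8 in LPS mice and 59.4 and 54.9 in LPS+YW3-56 mice. It was called higher in LPS than control lungs (0.48 ± 0.09, edgeR adjusted p 0.00113) except on library size (0.20, edgeR adjusted p 0.152). Kif3b was also called higher in LPS+YW3-56 against control (0.35 ± 0.10, edgeR adjusted p 0.0397), a call lost without control mouse 1, 2 or 4 (0.31, 0.37 and 0.35), without LPS+YW3-56 mouse 2 or 5 (0.27 and 0.38), on library size (0.39), on upper-quartile scaling (0.34) and with no filter on low counts (0.35).

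Ift57 and Ttc21b are named after their values were seen. Ift57, a carrier subunit, was at 15.5, 16.6 and 15.4 TMM-CPM in control mice, at 46.0, 43.6 and 43.4 in LPS mice and at 22.1 and 17.6 in LPS+YW3-56 mice. Its LPS mice were highest (1.49 ± 0.11 against control, edgeR adjusted p 4.13e-06, and −1.16 ± 0.13 in LPS+YW3-56 against LPS, edgeR adjusted p 6.36e-05). Ttc21b, a subunit of the return transport complex, was at 12.1, 14.2 and 12.3 in control mice, at 2.02, 1.67 and 1.45 in LPS mice and at 8.89 and 9.04 in LPS+YW3-56 mice. All LPS mice were lowest (−2.91 ± 0.19 against control, edgeR adjusted p 2e-06).

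Promoters were searched for the letters of forkhead and RFX factors, the families of Foxj1 and of the RFX proteins that act with it in ciliated cells. The RefSeq promoter table (GRCm38.p6, 250 bases before to 50 after each start) held 63 windows for 56 of the 93 members and 32851 windows in all, and Foxj1 was not among them. On both strands, the forkhead motif TGTTTAC was in 4 of 63 member windows (6.35%) and in 3.65% of all windows. The short RFX motif GTTGCC was in 25 member windows (39.7%) and in 12.5% of all windows, and the longer GTTGCCAT, which contains the short one, was in 8 (12.7%) and in 1.35%. In the 33 windows of members called higher in LPS than control lungs the shares were 6.06% for the forkhead motif, 33.3% for the short RFX motif and 6.06% for the longer one. In the 8 windows of members called lower they were 12.5%, 50% and 25%, and in the 19 windows of members with no call 5.26%, 47.4% and 15.8%. These shares describe the letters in the windows and not sites bound by a factor.

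The next stretches of 80 bases show these letters in members called higher (Dnah17, Cfap43, Cfap44) and lower (Tekt3, Cfap161, Cfap97d2) in LPS than control lungs. They are from the RefSeq table and matched exactly, at 1 place on their chromosome, to GRCm39 at chr11:118020216-118020295 (minus strand), chr19:47825839-47825918 (minus), chr16:44215079-44215158 (plus), chr11:62952248-62952327 (plus), chr7:83444071-83444150 (minus) and chr8:13755806-13755885 (plus), in that order. Each is written 5′ to 3′ on the strand of its gene, with the motif in capitals, which is the forkhead motif in Dnah17, Cfap43 and Tekt3 and RFX motifs in the others (Cfap43, Cfap44, Cfap161 and Cfap97d2 hold theirs on the other strand).
Dnah17: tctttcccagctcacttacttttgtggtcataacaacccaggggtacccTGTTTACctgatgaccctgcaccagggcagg
Cfap43: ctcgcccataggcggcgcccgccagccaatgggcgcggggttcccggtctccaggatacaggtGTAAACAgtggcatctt
Cfap44: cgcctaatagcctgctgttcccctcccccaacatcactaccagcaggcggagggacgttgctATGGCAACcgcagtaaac
Tekt3: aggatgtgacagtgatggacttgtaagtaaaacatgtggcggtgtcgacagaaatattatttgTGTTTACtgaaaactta
Cfap161: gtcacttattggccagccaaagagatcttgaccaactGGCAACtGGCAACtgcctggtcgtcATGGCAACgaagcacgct
Cfap97d2: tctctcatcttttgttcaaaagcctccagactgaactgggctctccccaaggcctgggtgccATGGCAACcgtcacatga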

How the data were processed

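Lung RNA-seq counts of 8 mice were used as deposited, in raw counts per gene that the authors made, per the submitters' processing notes, with FastQC 0.11.9, Trim Galore, HISAT2 2.2.1 and featureCounts 2.0.1 on GRCm39. Strand use, annotation release and the handling of reads with several matches are not given in the sources used here. Libraries held from 19061949 to 20908608 counts. Gene symbols and exons came from GENCODE M39, which held 54749 of the 55416 identifiers. Genes passing edgeR's filterByExpr (18560) were fitted with edgeR 4.0.16 in R 4.3.3, with TMM scaling, a quasi-likelihood test over the 3 groups and Benjamini-Hochberg adjustment over all genes. The fit was tested on simulated data. Levels per kb divide TMM-CPM by exon length.

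Named genes were Foxj1, the 3 most abundant per kb in control lungs in each role and pathway list, the 4 called members at each end of each comparison with a mean of at least 1 TMM-CPM, and up to 5 members called against the majority. The members and lists were chosen with earlier results of these data known. Alternatives were DESeq2 1.42.0, other scalings and filters, fits of 2 groups, fold criteria and leaving out mice.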

Additional observations from a re-analysis of the deposited data

How the results depend on the processing

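No paired analysis was made, because the methods describe mice divided at random into groups and the labels name no pairs. For the named members, 911 of 978 values kept both their sign and their side of the threshold under other processing and 1119 of 1269 with mice left out. The other side of the threshold was reached by 56 and 110 values and the other sign by 11 and 40. No value with the other sign was called in either fit. Among the other named genes, E2f4 was called higher in LPS than control lungs (0.28) and was at −0.01 (edgeR adjusted p 0.913) on library size alone. The same change of scaling moved the median of all genes from −0.01 to −0.29. The E2f4 call was also lost on upper-quartile scaling (0.19), with no filter (0.25), without control mouse 1 or 2 (0.24 and 0.27) and without LPS mouse 1 or 6 (0.23 and 0.27). Where a group was left with 1 mouse, that mouse is assumed to vary like those of the other groups. At depths of 19061949 to 20908608 counts, members with few counts have wide errors.

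In LPS against control, members called higher numbered 20 on library size, 26 with LPS mouse 1 alone, and 19 with each criterion of a fold change over 2 (with unadjusted or adjusted p), where all genes gave 23.4%, 27.1%, 18.3% and 17.9% in that order. In LPS+YW3-56 against LPS, members called lower numbered 16 on library size, 18 with only the 2 groups fitted, 16 with LPS mouse 1 alone and 14 with each fold criterion, where all genes gave 17.4%, 25.7%, 23.2% and, for the fold criteria, 14.7% and 14%. Members called higher numbered 25 on library size and 10 with only the 2 groups fitted, where all genes gave 42.5% and 27.2%. Against control, members called higher in LPS+YW3-56 lungs numbered 1 with DESeq2, 2 with no filter, 2 with only the 2 groups fitted and 1 with LPS mouse 1 alone, where all genes gave 10.3%, 6.15%, 11.9% and 10.1%. The cause of these differences was not tested.

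With each mouse left out in turn, LPS against control gave 14 to 21 lower and 32 to 44 higher, LPS+YW3-56 against LPS gave 14 to 32 lower and 9 to 24 higher, and LPS+YW3-56 against control gave 0 to 1 lower and 0 to 2 higher. Of all genes, these fits called 30.8% to 33.6% lower and 28.9% to 32% higher, then 20.7% to 27% lower and 23.5% to 31.2% higher, and then 2.2% to 9.06% lower and 4.04% to 10.7% higher. Summed levels on library size were 1350.0, 1500.0 and 1414 in control mice and 1613 and 1448 in LPS+YW3-56 mice, and without Foxj1 they were 1161, 1245 and 1204 TMM-CPM in control mice and 1345 and 1236 in LPS+YW3-56 mice.

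Upper-quartile scaling also lost the LPS against control calls of Dnah5 (0.74), Dnah10 (0.55), Cfap52 (0.59), Tekt1 (0.38) and Ccdc39 (0.74) and the LPS+YW3-56 against LPS calls of Dnah5 (−0.83), Cfap43 (−0.62) and Cfap54 (−1.03). Fitting only the 2 groups compared lost the LPS+YW3-56 against LPS calls of Dnah5 (−0.93), Dnah14 (−1.15), Cfap43 (−0.72), Cfap54 (−1.13) and Cfap100 (0.41) and the LPS against control call of Dnah10 (0.64), which was also lost with at least 10 counts asked of every library (0.62). DESeq2 lost the LPS+YW3-56 against LPS call of Cfap100 (0.37). Library size moved some called values by over 1.5 times without changing the call, namely Dnai1 (−0.85), Tekt4 (−0.73) and Cfap100 (−0.84) in LPS against control and Cfap100 (0.75), Ift172 (0.75), Rsph1 (−0.41), Cfap126 (−0.31) and Cfap144 (−0.49) in LPS+YW3-56 against LPS. It turned the sign of the uncalled LPS against control values of Cfap20 (−0.15), Cfap74 (−0.11), Cfap221 (−0.24) and Dynlrb2 (−0.15).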
